A study of Mus musculus with 8 samples.

Results

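The mouse carries 2 non-allelic insulin genes, Ins1 and Ins2, and both were followed cell by cell in islets of 8-week-old male C57BL/6J mice. They were taken by their columns among the 24421 genes of the count tables, whatever their values. Islet cells were profiled in droplets in 4 control samples, from mice with no operation, and in 4 samples taken 2 days after removal of 50% of the pancreas (partial pancreatectomy, PPTx). Each sample pooled the islets of 1 to 3 mice, so the tests below measure the spread between pools, and the surgery itself has no sham control. A UMI (unique molecular identifier) count is the number of tagged transcripts of a gene in a cell, read near the 3′ end and not scaled to transcript length.

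Insulin is made by the β-cell as preproinsulin, cut to proinsulin and then to insulin in the secretory granule, and stored there with zinc until glucose triggers release. Ins2 is the gene that corresponds to the insulin gene of other mammals, whereas Ins1 is a copy that arose in rodents by retroposition and lacks an intron that Ins2 kept. Pdx1, Neurod1 and Mafa are known activators of both genes, and islet α-, δ- and PP cells make glucagon (Gcg), somatostatin (Sst) and pancreatic polypeptide (Ppy) in place of insulin.

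On GRCm38.p6, the build of the authors' mm10 alignment, RefSeq places Ins1 on chromosome 19 from 52264297 to 52265015 and Ins2 on chromosome 7 from 142678656 to 142679726. In the GENCODE M1 transcripts, the coding sequence of Ins1 held 327 bases and that of Ins2 held 333. They were identical at 303 of 333 aligned positions, with 24 mismatches and 6 gap positions. Because a count of near-identical genes depends on telling their reads apart, the last 90 coding bases of each, down to the stop codon, are shown with the 4 bases that differ in capitals.
Ins1: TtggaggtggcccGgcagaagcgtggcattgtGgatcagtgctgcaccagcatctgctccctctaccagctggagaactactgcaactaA
Ins2: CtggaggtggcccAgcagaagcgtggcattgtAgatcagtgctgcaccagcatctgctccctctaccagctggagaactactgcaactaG
The longest run that both transcripts shared was 56 bases, and none of the 942 runs of 75 bases, the read length, in Ins1 or of the 404 in Ins2 occurred in a transcript of the other gene. A full-length read that matches exactly thus fits a single gene, but within the stretch shown only 1 to 3 bases decide it, and reads that the counting step could not assign to either gene were not analysed here.

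For reference, the 250 bases before the Ins1 start are printed (chr19:52264047-52264296, plus strand, GRCm38.p6, RefSeq).
Ins1 promoter: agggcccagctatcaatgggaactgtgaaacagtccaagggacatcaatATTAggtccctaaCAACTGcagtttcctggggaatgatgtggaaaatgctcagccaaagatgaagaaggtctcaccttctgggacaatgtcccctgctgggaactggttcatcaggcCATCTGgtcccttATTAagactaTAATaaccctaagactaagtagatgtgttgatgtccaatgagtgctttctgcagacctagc
Capitals mark TAAT, the core that homeodomain factors such as Pdx1 bind, CANNTG, the E-box of Neurod1 and its partner Tcf3, and TGCTGA, from the Mafa element, searched on both strands without overlap between the motifs. TAAT occurred 3 times, CANNTG 2 times and TGCTGA 0 times. Of 27025 promoter windows of the same length, 55.3% held TAAT, 66.0% held CANNTG and 15.8% held TGCTGA, so the matches are a description of these letters. The Ins2 promoter was not analysed here.

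The files held 236645 to 1580152 UMIs per sample. Limits of 100 to 3000 genes and 100 to 20000 UMIs left 1232 of 1240 cells (520 control, 712 PPTx), and 1 barcode occurred in 2 samples. Scrublet called 120 of the kept cells as doublets, 28 of them among the 54 β-cells of control replicate 1, and which cells it called changed with the number of computing threads. Cells were classed without insulin: where Gcg, Sst and Ppy together were under 10% of the UMIs outside Ins1 and Ins2, and at least 2 UMIs of a β-cell marker list were present, a cell was read as a β-cell (941 cells). At 20% or more it was read as hormone-led (273 cells: 122 led by Gcg, 136 by Ppy and 15 by Sst). The remaining 18 cells were between these limits (16) or lacked the markers (2). Per 10000 UMIs outside insulin, the β-cell list summed to 1282 in β-cells and to 35.8, 55.3 and 214 in Gcg-, Ppy- and Sst-led cells. Iapp alone gave 1174 of the 1282, and the rule itself asked for 2 UMIs of this list, so the sum is a description. Of the other markers, G6pc2 was found in 911 and Slc30a8 in 796 of the 941 β-cells, while Mafa had only 2 UMIs and Pdx1 42 in all β-cells. G6pc2 was also found in 36 and Slc30a8 in 98 of the 122 Gcg-led cells, and in 52 and 39 of the 136 Ppy-led cells. Detection of Slc30a8 thus hardly set β-cells apart from Gcg-led cells.

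Transcripts of both genes together took most of the RNA counted in a β-cell. Ins2 alone made up 50.1% of all β-cell UMIs and ranked first, Ins1 made up 8.27% and ranked second, and Iapp, which encodes the amyloid peptide released with insulin, came next at 4.89%. Over samples, the median joint share per β-cell was 59.7% ± 3.51 (SD, n = 8), with the lowest sample at 52.2% and the highest at 63.3%. Between single cells, 10% of all β-cells lay below 47.2% and 10% above 66.6%, and the highest cell reached 78.3%. Median insulin UMIs per β-cell ran from 1975.5 to 6519 over samples, 3.30-fold, while the share varied 1.21-fold. Within a sample, insulin UMIs and other UMIs of a β-cell rose together (Spearman's rho 0.596 to 0.856 across cells of 1 library, which share its depth), whereas the share was hardly related to depth (rho −0.19 to 0.19).

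Ins2 outnumbered Ins1 in every kept cell, and no cell held more Ins1 than Ins2 UMIs. The Ins1 fraction, Ins1 as a percent of Ins1 + Ins2, had a median per β-cell of 11.5%, 15.01%, 16.8% and 8.90% in control replicates 1 to 4. In PPTx replicates 1 to 4 it was 17.1%, 9.76%, 17.4% and 13.2%. Samples thus differed 1.96-fold in this fraction, with low and high samples in both groups. It was below 50% in 8 of 8 samples, a difference of −36.3 percentage points ± 3.40 (SD, n = 8; two-sided exact sign-flip permutation over samples, p = 0.0078, the smallest that 8 samples allow, adjusted p = 0.0156 over the 4 within-sample tests). As no kept cell held more Ins1 than Ins2 UMIs, this direction and p were fixed, so the test only restates that count. In UMIs summed over β-cells, Ins2 exceeded Ins1 4.69- to 9.99-fold.

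**Figure D1:**
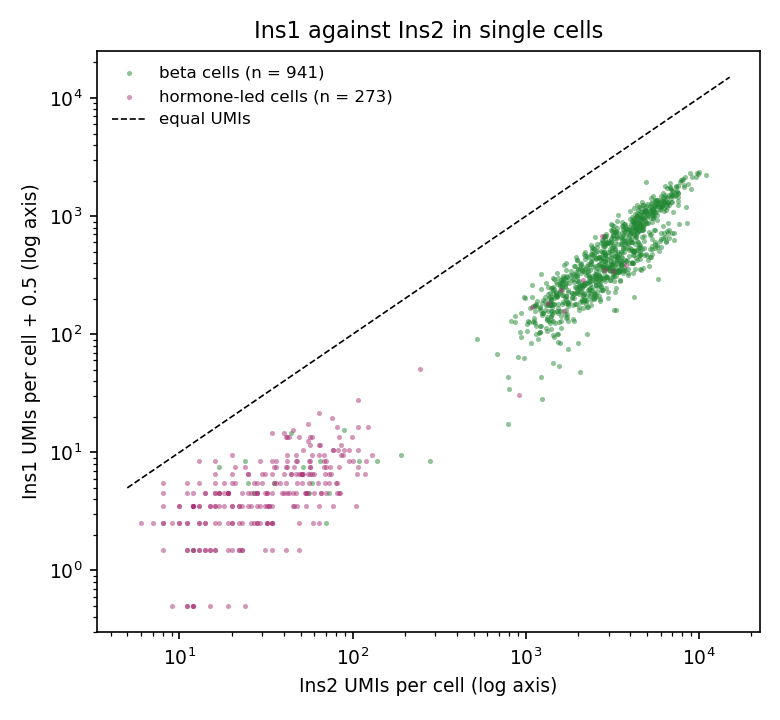
Ins1 UMIs per cell plus 0.5 against Ins2 UMIs per cell, both on log axes, for 941 β-cells (green) and 273 hormone-led cells (purple), with the line of equal UMIs dashed. Every cell lies below the line, β-cells form the dense group at upper right, and hormone-led cells with few exceptions lie at lower left.

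Within a sample the 2 genes varied together between β-cells. The logs of their UMIs correlated at r = 0.860 to 0.973 across the β-cells of a sample, values that depth raises. As shares of a cell's UMIs, which take depth out, rho was 0.243 to 0.442. The Ins1 fraction itself had an SD of 1.81 to 4.05 percentage points between β-cells of a sample. Its variance was 7.63 to 39.3 times what counting alone would give, and in hormone-led cells, with far fewer insulin UMIs, 0.851 to 2.61 times. The median Ins1 fraction was higher in the β-cells above their sample's median depth than in those below it in 8 of 8 samples, by 0.029 to 1.56 percentage points, so depth moved with it, and its part was not tested.

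Insulin UMIs were also present in every cell that was led by another hormone but at a far lower share. The median share per hormone-led cell was 0.589%, 0.457%, 0.585% and 1.17% in control replicates 1 to 4 and 0.859%, 1.94%, 0.264% and 0.987% in PPTx replicates 1 to 4. The lowest and the highest sample were both PPTx. β-cells exceeded hormone-led cells of the same sample by 58.9 percentage points ± 3.86 (SD), in 8 of 8 samples (exact sign-flip permutation, p = 0.0078, adjusted p = 0.0156). All 273 hormone-led cells had an insulin UMI and 264 had an Ins1 UMI, at a median of 4392 UMIs per cell, against 941 of 941 β-cells for both at 6063, so presence did not separate the classes. A low share in cells that should lack the transcript is read here as background and not as expression.

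The background level was of the same order whichever hormone led, but not equal. In samples with at least 5 such cells, the median share was 0.860% ± 0.593 (SD, n = 6) in Gcg-led and 0.820% ± 0.606 (SD, n = 7) in Ppy-led cells, with ranges that overlap over most of their length. Sst-led cells reached 5 in a single sample, control replicate 4, where their median was 2.04% against 1.46% in Gcg-led and 0.962% in Ppy-led cells of that sample. Sst-led cells, 1 to 5 in a sample, had the highest of the 3 medians in 6 of the 6 samples that held any. Scrublet called 4 of these 15 cells, against 5 of 122 Gcg-led and 8 of 136 Ppy-led cells, among them every Sst-led cell of control replicate 1 (2) and PPTx replicate 1 (1). Sst-led cells also held a median of 55 UMIs of the β-cell list, against 7 in Gcg-led and 8 in Ppy-led cells, and the part of doublets was not tested. Gcg-led exceeded Ppy-led cells in control replicates 2 to 4 and in PPTx replicates 1 and 4. The reverse held in control replicate 1 and in PPTx replicates 2 and 3. The median of β-cells was above all others in every sample. The order of Gcg- and Ppy-led cells was not the same in all samples, and the place of Sst-led cells rests on 15 cells. None of these differences was tested.

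**Figure D2:**
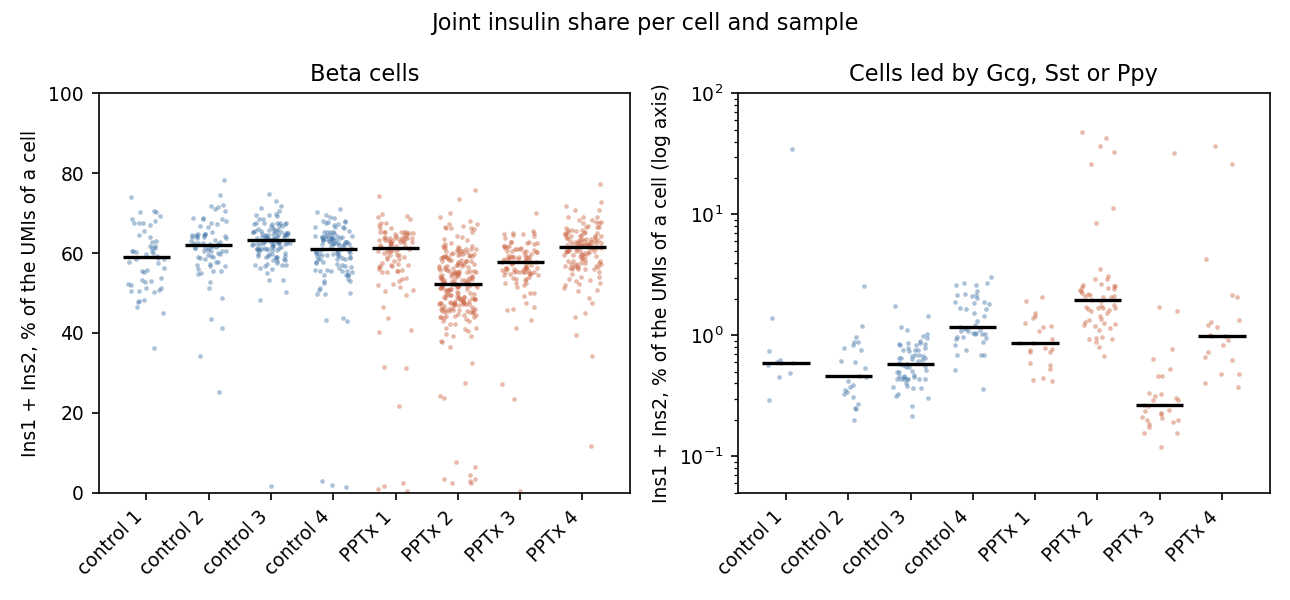
Ins1 + Ins2 as a percent of the UMIs of a cell, 1 point a cell, by sample, in β-cells (linear axis from 0 to 100) and in hormone-led cells (log axis), control in blue and PPTx in orange, with a black bar at each sample's median. β-cell medians lie between 52.2% and 63.3% and hormone-led medians between 0.264% and 1.94%, and in both panels the groups overlap.

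The background rose less with the depth of the cell than its other UMIs did. Hormone-led cells above their sample's median depth held 1.22 to 2.11 times the other UMIs of those below it, but only 1.10 to 1.40 times the insulin UMIs, so their share was lower in 7 of 8 samples. In β-cells the corresponding ratios were 1.44 to 2.05 for other and 1.499 to 2.05 for insulin UMIs. The share was lower with more hormone, though not at every step: it had a median of 59.9% in 899 cells with under 1% of Gcg, Sst and Ppy, 50.2% in 15 cells at 1 to 2%, 43.1% in 15 cells at 2 to 5%, 31.3% in 14 cells at 5 to 10%, 41.96% in 7 cells at 10 to 15%, 6.74% in 9 cells at 15 to 20% and 2.56% in 19 cells at 20 to 30%. It was 1.36% in 52 cells at 30 to 40%, 0.761% in 185 cells at 40 to 60% and 0.303% in 17 cells above 60%. Thus few cells lay near the limits of the classes.

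A small number of cells did not follow their class. Among hormone-led cells, 10 had over 10% insulin (1 control and 9 PPTx, 6 of these in PPTx replicate 2), up to 48.5%, and they held 24104 of the 36124 insulin UMIs of the class. Their median depth was 8455.5 UMIs against 4392 in the whole class, they had a median of 248.5 UMIs of the β-cell list against 8, and Scrublet called 2 of them. The part of doublets was not tested. Among β-cells, 17 had under 10% insulin (4 control and 13 PPTx), and these held 4589 of the 4598 UMIs of Ghrl, the ghrelin gene that marks ε-cells, 100 of 102 UMIs of the immune list and 125 of 139 of the stellate list in the class. Of the 17, only 2 cells had any Ghrl. Summed over the β-cells of a sample, per 10000 UMIs outside insulin, Ghrl was at 140.2 in PPTx replicate 1 alone, at most 0.024 in the other PPTx samples and at most 0.021 in control. The PP list of 2 genes ran from 5.78 to 19.3 in control and from 35.8 to 71.3 in PPTx samples. The acinar list of 5 genes ran from 0.030 to 0.123 and from 0.145 to 1.79, on only 72 UMIs in all β-cells. These 2 lists were higher in every PPTx sample, while every other cell-type list overlapped between the groups. The part of the 2 lists in the comparisons below was not tested.

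The ratio of both genes in the background tracked the β-cells of the same sample. In hormone-led cells the median Ins1 fraction was 11.9%, 12.5%, 14.3% and 7.35% in control replicates 1 to 4 and 16.7%, 9.38%, 16.0% and 12.5% in PPTx replicates 1 to 4. Across the 8 samples it correlated with that of β-cells at Pearson's r = 0.951 (permutation p = 7.44e-05, adjusted p = 2.23e-04 over 3 relations) and Spearman's rho = 0.976 (p = 3.97e-04, adjusted p = 0.0012). Without the 2 samples farthest from the median, control replicate 4 and PPTx replicate 2, r was 0.872 (exact permutation p = 0.0208). The relation was computed after the values had been seen.

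**Figure D3:**
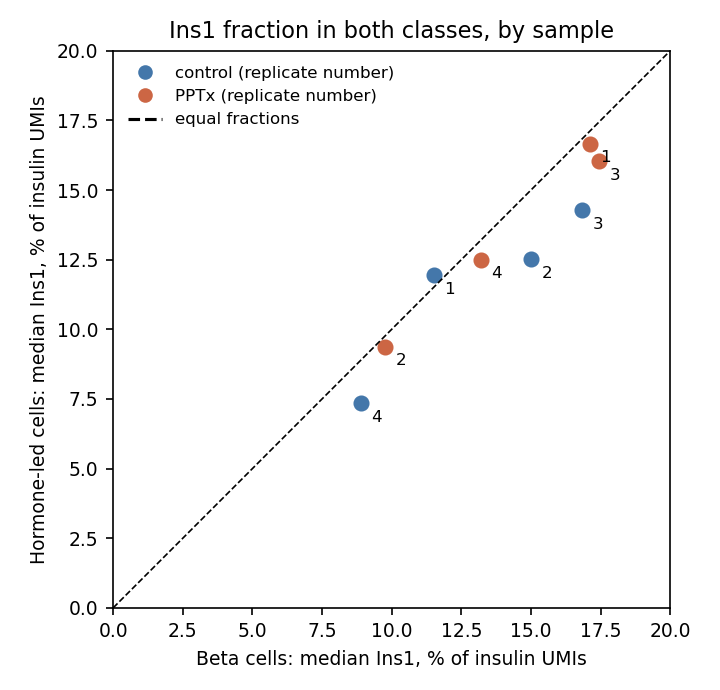
Median Ins1 fraction (percent of insulin UMIs) of hormone-led cells against that of β-cells, 1 point a sample with its replicate number, control in blue and PPTx in orange, with the line of equal fractions dashed. The 8 points run along the line from 8.90% and 7.35% in control replicate 4 to 17.4% and 16.0% in PPTx replicate 3, and 7 of them lie below it.

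The fraction was slightly higher in β-cells, by 1.14 percentage points ± 1.05 (SD, n = 8), in 7 of 8 samples (exact sign-flip permutation, p = 0.0234, adjusted p = 0.0234). A median of few UMIs is coarse, since a hormone-led cell held a median of 13.5 to 83 insulin UMIs. With UMIs summed over the cells of a sample the difference was 0.43 (exact p = 0.508), and with hormone-led cells of at least 40% hormone it was 0.38 (exact p = 0.852). This small difference thus depended on how the fraction was formed and on the limits of the class.

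Whether insulin transcripts changed 2 days after PPTx was asked in β-cells first. The median joint share per cell was 59.0%, 61.9%, 63.3% and 61.2% in control replicates 1 to 4. In PPTx replicates 1 to 4 it was 61.2%, 52.2%, 57.8% and 61.5%. PPTx replicates 2 and 3 lay below every control sample and the other two within the control range. The means were 61.3% ± 1.80 (SD, n = 4) and 58.2% ± 4.34 (SD, n = 4), a difference of −3.17 percentage points that did not pass the test (exact permutation p = 0.229, adjusted p = 0.686 over the 6 comparisons, where 4 samples against 4 can reach 0.0286). Without PPTx replicate 2 the difference was −1.17 (exact permutation p = 0.457).

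The other measures of the β-cells also overlapped between the groups. The mean Ins1 fraction was 13.1% ± 3.55 in control and 14.4% ± 3.63 in PPTx samples (SD, n = 4 each; exact p = 0.6, adjusted p = 0.72). Median insulin UMIs per β-cell averaged 4023 ± 1901 and 3697 ± 1449 (exact p = 0.771). The SD of the share between β-cells of a sample, a measure of how unequal the cells were, averaged 8.41 ± 1.61 percentage points in control and 10.4 ± 2.95 in PPTx samples (exact p = 0.229, adjusted p = 0.686). With 1 sample left out at a time this difference ran from 0.88, without PPTx replicate 1, to 3.04 percentage points. It was −1.80 with classes taken from clusters. Without the low-insulin cells described above, 13 of 17 from PPTx samples, the difference in SD was 1.12 in place of 2.04 percentage points. These cells were left out by their share, the measure whose SD was compared, so this value is a description. The difference in median share without them was −3.005 (exact p = 0.229), a description for the same reason.

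Each gene was then tested on UMIs summed per sample with edgeR's quasi-likelihood test over all genes. Ins2 took 51.7%, 52.2%, 52.3% and 54.9% of β-cell UMIs in control replicates 1 to 4 and 48.3%, 46.0%, 47.0% and 52.5% in PPTx replicates 1 to 4. Thus 3 of the 4 PPTx samples were below all controls, and PPTx replicate 4 was within their range. Its log2 fold change was −0.20 (SE 0.14, edgeR adjusted p = 0.705), and with each sample left out in turn it ran from −0.30 to −0.12 (edgeR adjusted p = 0.364 to 0.859). Ins1 took 6.83%, 9.23%, 10.7% and 5.50% of UMIs in control and 10.1%, 5.09%, 10.01% and 8.14% in PPTx replicates 1 to 4, with high and low samples in both groups. Its log2 fold change was −0.03 (SE 0.22, edgeR adjusted p = 0.989), with either sign under other settings. In this comparison 19 of 5850 genes were called (0.325%), 12 higher (0.205%) and 7 lower (0.12%) after PPTx, and neither insulin gene was among them. With library sizes alone 27 were called higher and 4 lower, so the balance of directions depended on the scaling.

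Hormone-led cells gave a higher fitted level of both genes after PPTx that did not pass the test. The class was made up differently in the groups, with 98 Gcg-led, 33 Ppy-led and 12 Sst-led cells in control and 24, 103 and 3 in PPTx samples, and the part of this difference was not tested. Ins1 summed to 0.659%, 0.070%, 0.080% and 0.097% of UMIs in control replicates 1 to 4 and to 0.150%, 0.651%, 0.425% and 0.717% in PPTx replicates 1 to 4. Control replicate 1, with 11 such cells of which 1 had over 10% insulin, was at the level of the higher PPTx samples and the other controls were below all of them. Ins2 summed to 4.77%, 0.425%, 0.513% and 1.13% in control and to 0.683%, 6.05%, 1.78% and 4.83% in PPTx replicates 1 to 4. For this gene PPTx replicate 1 lay below control replicates 1 and 4. The log2 fold change was 1.37 for Ins1 (SE 0.55, edgeR adjusted p = 0.412) and 1.14 for Ins2 (SE 0.65, edgeR adjusted p = 0.636), and 4 of 1564 genes were called (0.256%), all lower after PPTx. Not every setting called lower genes alone: without Scrublet calls 3 were called higher and 6 lower. Without control replicate 1 the log2 fold change of Ins1 was 2.68 (edgeR adjusted p = 0.0015), and without the 10 cells over 10% insulin it was 0.74 (SE 0.25, edgeR adjusted p = 0.279), still higher after PPTx. These cells were left out by their insulin share, the measure then compared, and 9 of the 10 were PPTx, so this value is a description. The β-cell list moved with these sums: per 10000 UMIs outside insulin, its 10 genes (6 to 9 detected in a sample) summed to 113.7, 27.0, 25.6 and 25.5 in the hormone-led cells of control replicates 1 to 4 and to 22.4, 105.8, 73.5 and 75.1 in those of PPTx replicates 1 to 4. Control replicate 1 and PPTx replicates 2 to 4 were the high samples, as for Ins1, and the part of β-cell RNA in the result was not tested. For Ins2 the values without control replicate 1 and without the cells over 10% insulin were 2.40 (edgeR adjusted p = 0.0822) and 0.55 (edgeR adjusted p = 0.729), and without Scrublet calls Ins1 was at 0.67 and Ins2 at 0.39 (edgeR adjusted p = 0.793 and 0.908). The medians over cells, on which these 10 cells weigh little, did not differ beyond the spread: 0.700% ± 0.319 in control and 1.01% ± 0.695 in PPTx samples (SD, n = 4 each; exact permutation p = 0.486, adjusted p = 0.72).

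The Ins1 fraction of the hormone-led cells averaged 11.5% ± 2.95 and 13.6% ± 3.38 (SD, n = 4 each; exact p = 0.429). This difference of 2.12 percentage points was 0.73 without control replicate 4 and 3.54 without PPTx replicate 2. Its sign turned with hormone-led cells of at least 40% hormone (−0.11) and with classes taken from clusters (−0.29). The PPTx effect in hormone-led minus that in β-cells was 0.39 for the log2 share (exact permutation p = 0.657) and 0.81 percentage points for the Ins1 fraction (exact p = 0.286), and neither passed the test.

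β-cells with transcripts of the replication machinery had a lower share of insulin than the other β-cells, though not fewer insulin UMIs in every sample. At least 2 UMIs of a 10-gene list (such as Top2a and Mki67, which act in and mark dividing cells) were found in 40 β-cells, 10 in control and 30 in PPTx samples. Their median share was 36.2%, 51.3%, 61.8% and 54.3% in control replicates 1 to 4, against 59.3%, 62.0%, 63.3% and 61.5% in the other β-cells. In PPTx replicates 1 to 4 it was 56.6%, 40.9%, 61.5% and 55.3%, against 61.5%, 52.3%, 57.6% and 61.7%. It was lower in 7 of 8 samples, and PPTx replicate 3 alone went the other way. The mean difference was −7.66 percentage points ± 7.95 (SD, n = 8; exact sign-flip permutation p = 0.0234, adjusted p = 0.0234). Their median insulin UMIs per cell were above those of all β-cells in 4 of 8 samples (3402 against 3398 in control replicate 2, 7119 against 6519 in control replicate 3, 6007 against 4613 in PPTx replicate 1 and 5859.5 against 5237 in PPTx replicate 3). Control replicates 1 and 2 gave 1 such cell each, and of the 14 cells of PPTx replicate 2, 2 had under 10% insulin.

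A cell with more UMIs outside insulin has more chances to show the list. After thinning each β-cell to 1000 UMIs outside insulin, which left out 62 shallower cells, 21 cells kept 2 UMIs of the list, and the difference was −8.36 percentage points ± 7.29, again in 7 of 8 samples (exact sign-flip permutation p = 0.0156). Without the β-cells under 10% insulin it was −7.42 (exact p = 0.0234). That removal used the share that is then compared, so this value is a description. Without cells called by Scrublet the difference was −7.25 over 7 samples (exact p = 0.0625), since the single such cell of control replicate 2 was a call.

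**Figure D4:**
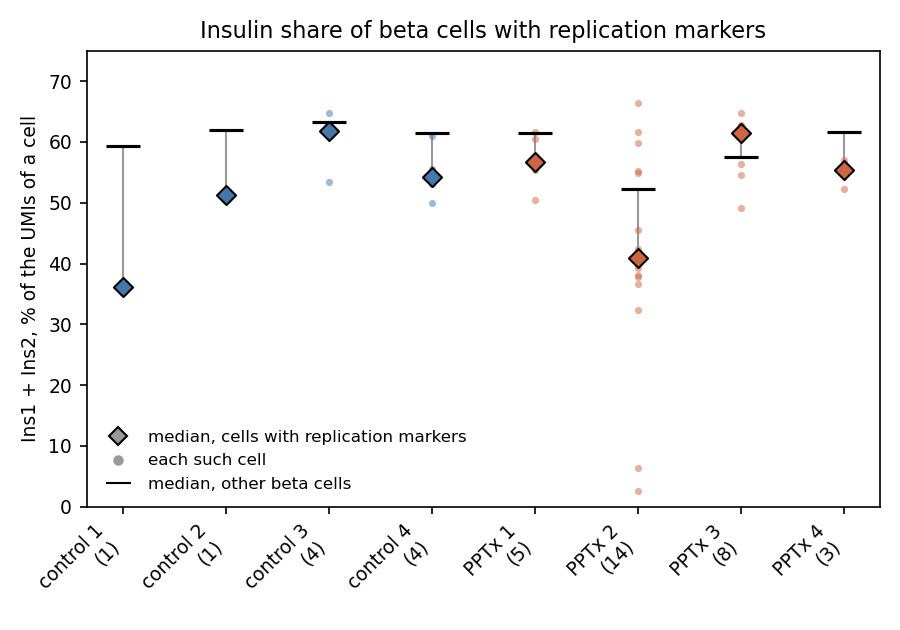
Ins1 + Ins2 as a percent of the UMIs of a cell in β-cells with at least 2 UMIs of the replication list, by sample with their number in parentheses, 1 small point a cell and a diamond at their median, control in blue and PPTx in orange. The black bar is the median of the other β-cells, and the diamond lies below it in 7 of 8 samples.

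Transcription factors that act on the insulin genes were taken as a list of 15. Of these, 11 passed the filter on low counts in β-cells, while Mafa (2 UMIs in all), Pdx1 (42) and Hnf4a (50) were among those that did not. Of the 11, 0 were called by edgeR at an adjusted p of 0.05 and 0 by DESeq2, and 2 had an unadjusted edgeR p under 0.05, against 546 of all 5850 genes. Their log2 fold changes were negative for 9 of 11, with a median of −0.29 against −0.01 over all 5850 genes, and with library sizes alone, which moved the median of all genes to 0.13, for 7 of 11 with a median of −0.20. Neurod1, an E-box factor, was at 224 to 287 CPM (UMIs scaled to a common sample total) in control and 193 to 231 CPM in PPTx samples, with a log2 fold change of −0.33 (SE 0.15, edgeR adjusted p = 0.498). Insm1, a zinc-finger factor of endocrine cells, was at 149 to 229 CPM and 143 to 182 CPM, with −0.32 (SE 0.16, edgeR adjusted p = 0.554). The ranges of both overlapped between the groups.

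The genes that process proinsulin and build the granule were 13, all tested, and 0 were called by edgeR and 0 by DESeq2, with 1 at an unadjusted edgeR p under 0.05, against the same 546 of 5850. They were spread around 0, with 7 positive and 6 negative and a median of 0.03 (0.13 with library sizes alone, where all genes also had 0.13). Iapp was at 41556 to 49653 CPM in control and 45573 to 59744 CPM in PPTx samples, with a log2 fold change of 0.08 (SE 0.13, edgeR adjusted p = 0.914). Chga, a granin that shapes the granule, was at 8514 to 12370 CPM and 9407 to 10608 CPM, with −0.09 (SE 0.14, edgeR adjusted p = 0.91). Ptprn, a granule membrane protein, had the lowest adjusted p of the list at 0.521.

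**Figure D5:**
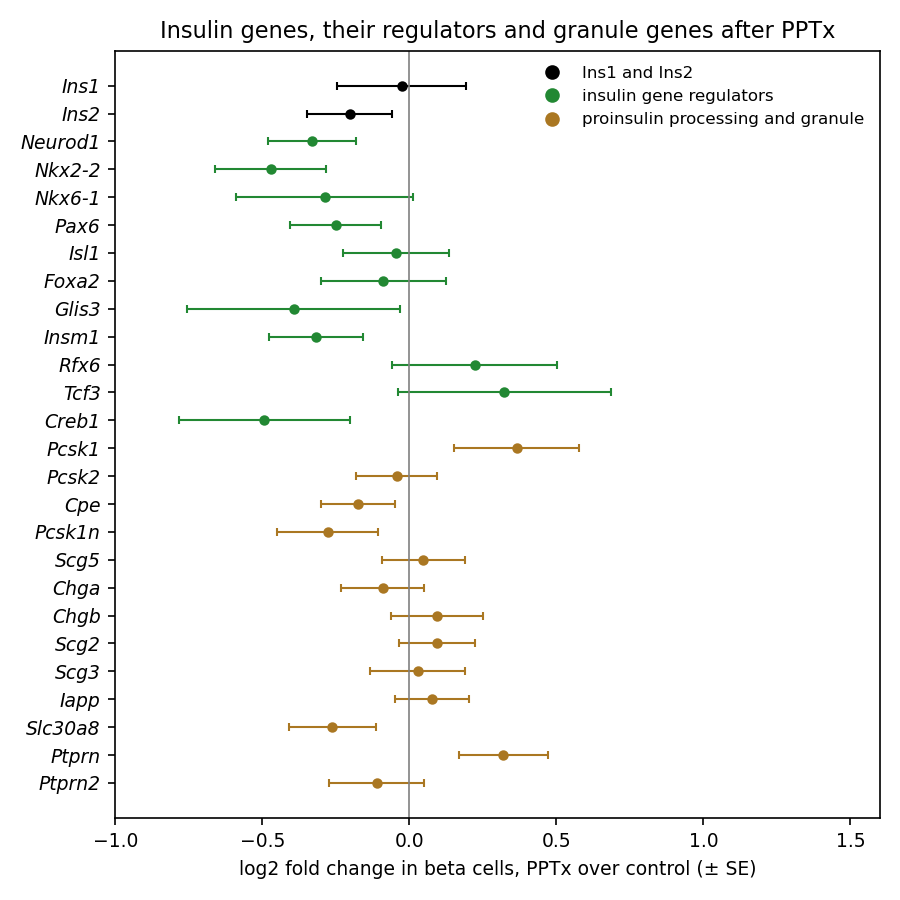
log2 fold change in β-cells, PPTx over control, with its SE as the bar, for Ins1 and Ins2 (black), 11 regulators of the insulin genes (green) and 13 genes of proinsulin processing and the granule (brown). Most regulators lie left of 0 and the granule genes on both sides, and none passed the edgeR test at an adjusted p of 0.05.

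Over 22 sums per sample and class (β-, Gcg-, Sst- and Ppy-led cells, at least 5 cells each), Ins1 and Ins2 followed each other at r = 0.987 (log2 CPM, all hormones left out of the total). These sums share libraries and fall into β-cells and the rest, so r mainly describes that step. Insulin in the hormone-led sums was read above as background, so r does not show shared regulation. Among 3880 other genes, the nearest to Ins1 were Iapp (r = 0.943), Atp2a2 (0.934), the calcium pump of the endoplasmic reticulum, and Pdyn (0.922), the prodynorphin gene. Nearest to Ins2 were Iapp (0.951), Atp2a2 (0.933) and Emilin1 (0.924), an extracellular matrix glycoprotein. Iapp belongs to the β-cell list that the class rule used, so its place is partly built in. In CPM of the UMIs outside these hormones, Atp2a2 averaged 1907 in β-cells and 461 and 424 in Gcg- and Ppy-led cells. Pdyn averaged 201 in β-cells, was at 0 in Gcg-led cells and averaged 3.53 in Ppy-led cells.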

How the data were processed

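Islet cells of 4 control and 4 PPTx samples were analysed. Per the paper's methods the authors used the ddSEQ system, whereas the labels also name a Chromium kit, and they aligned to mm10, then filtered and counted UMIs with Cell Ranger. The deposited values are raw UMI counts, 1 row a cell and 1 column a gene symbol, and the limits of that filter are not given in the sources used here. Limits of 100 to 3000 genes and 100 to 20000 UMIs a cell were applied, after the study's methods. Classes, shares and fractions were computed in Python 3.11.15 and Scrublet run in scanpy 1.11.5 per sample at an expected rate of 0.06 on a single thread. UMIs were summed per sample and tested by quasi-likelihood in edgeR 4.0.16 (filterByExpr, TMM scaling, Benjamini-Hochberg at 0.05; SE = the log2 fold change over the root of F), with DESeq2 1.42.0 as an alternative. An alternative took classes from Seurat 5.3.0 clusters built without both insulin genes (2000 variable genes, 7 dimensions, resolution 0.5). Values per sample were compared by exact permutation, and all tests were two-sided. Tests were tried on simulated data. The genes and lists were chosen with earlier results of these data known. Of each list, genes called in β-cells were to be named or, with none called, the 2 with the highest mean CPM, and the 3 genes most like each insulin gene (mean CPM of at least 50, prior 1). Ptprn, Pdx1, Mafa and Hnf4a were named after their values were seen. Depth ranged from 236645 to 1580152 UMIs per sample.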

Additional observations from a re-analysis of the deposited data

How the results depend on the processing

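Limits come first from the number of pools, 4 a group, which cannot give an exact p under 0.0286, and from few cells: 11 hormone-led cells in control replicate 1 and single replicating β-cells in 2 samples. The direction and the side of the threshold were the same under every alternative tried for the β-cell joint share after PPTx (18), the joint share in hormone-led cells after PPTx (17), the joint share of β- against hormone-led cells (17), the Ins1 fraction against 50% (15) and Ins2 after PPTx in both classes (15 each), though not the size: without PPTx replicate 2 the β-cell share differed by −1.17 and the hormone-led share by 0.0031, the hormone-led share differed by 1.88 with pooled counts and by 0.55 as a share of UMIs other than Gcg, Sst and Ppy, and Ins2 in hormone-led cells ran from 0.39 without Scrublet calls to 2.40 without control replicate 1. The outcome for the Ins1 fraction against 50% was fixed, as no kept cell held more Ins1 than Ins2 UMIs. Alternatives that thinned cells, left out cells under or over 10% insulin, or used log2 shares were chosen after seeing the data, and the causes of changes were not tested. The Ins1 fraction of β- minus hormone-led cells was 0.38 with hormone-led cells of at least 40%, 0.25 with classes from clusters, 1.38 without Scrublet calls and 0.43 with pooled counts, none past the threshold. The replicating difference was −7.25 without Scrublet calls (7 samples, exact p = 0.0625). The Ins1 fraction after PPTx in hormone-led cells was −0.11 at the 40% limit and −0.29 with classes from clusters, and the SD of the β-cell share was −1.80 with clusters. Ins1 in β-cells had log2 fold changes of 0.055 with library sizes alone, 0.0011 with no filter and 0.0060 without Scrublet calls. Ins1 in hormone-led cells was 1.65 with no filter (edgeR adjusted p = 0.0055). Genes called in β-cells numbered 31 with library sizes alone (27 higher, 4 lower), 89 with no filter (68 higher, 21 lower) and 11 without Scrublet calls (7 higher, 4 lower), against 19. In hormone-led cells they numbered 9 with library sizes alone (0 higher, 9 lower) and 11 with no filter (4 higher, 7 lower), against 4. They numbered 9 without Scrublet calls (3 higher, 6 lower) and 8 without cells over 10% insulin (3 higher, 5 lower). DESeq2 called 27 and 6.

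Leaving out 1 sample at a time gave −1008 to 506.5 for the difference in β-cell insulin UMIs (positive without control replicate 3, PPTx replicate 2 or PPTx replicate 4), −0.083 to 2.85 for the β-cell Ins1 fraction (negative without control replicate 4) and −0.17 to 0.19 for Ins1 in β-cells (positive without control replicate 2, control replicate 3 or PPTx replicate 2). Ins1 in hormone-led cells ranged from 1.08 to 2.68 (called without control replicate 1). Calls ranged from 8 to 20 in β-cells, lowest without PPTx replicate 1, and from 0 to 12 in hormone-led cells, with 0 by edgeR without control replicate 3, where 94 genes had an unadjusted p under 0.05.

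Control and PPTx samples share replicate numbers but were left unpaired. Deviations in β-cells correlated at 0.0465, 0.0234, 0.0858 and 0.143 for same-numbered and −0.1 to 0.0738 for other pairs. Pairing was not tested. With the replicate block, 35 genes were called in β-cells and 5 in hormone-led cells, and neither insulin gene was. In hormone-led cells the block gave a log2 fold change of 2.05 for Ins1 (edgeR adjusted p = 0.229), against 1.37 without it. For Ins2 it gave 1.72 (edgeR adjusted p = 0.511), against 1.14.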

Other observations

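The 16 cells between the class limits had a median insulin share of 38.01%, from 1.11% to 57.0%, and 11 of them had over 10%. In the 2 cells that lacked the β-cell markers the median share was 0.772%. Across the 8 samples, the median UMIs per β-cell and the Ins1 fraction gave Pearson's r = 0.609 (permutation p = 0.114) and Spearman's rho = 0.619 (p = 0.115), with r = 0.243 (exact permutation p = 0.615) without the 2 samples farthest from the median depth. The percent of β-cells in a sample and the insulin share of its hormone-led cells gave r = 0.174 (permutation p = 0.681) and rho = 0.262 (p = 0.536), with r = −0.0037 (exact permutation p = 0.994) without 2 samples. Adjusted over the 3 relations computed, the p for r was 0.172 and 0.681.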
